A study of Mus musculus with 12 samples.

Results

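CD8 T cells that had switched on Foxp3 were compared with activated CD8 T cells that had not. Members were taken from the sample labels: the 3 arrays of the CD8 Foxp3-positive group and the 3 of the CD8 control group, 6 of the 12 arrays in all. The T cells came from C57BL/6 mice carrying a Foxp3-GFP reporter, in which green fluorescent protein (GFP) marks cells that transcribe Foxp3. Each well held 200000 T cells and 20000 CD11c dendritic cells of BALB/c mice, whose foreign tissue antigens drive the T cells to divide (an alloreactive response). All CD8 wells held IL-2 (5 ng/mL) and were sorted after 4 days. Control arrays are GFP-negative cells of wells with IL-2 as the only addition. Foxp3-positive arrays are GFP-positive cells of wells to which retinoic acid (40 nM) and TGF-β (5 ng/mL) were also added. CD4 T cells were treated in the same ways for 5 days and gave the other 6 arrays. Both agents and the sort change together between the groups, so an effect of TGF-β, of retinoic acid and of Foxp3 itself cannot be told apart. GFP-negative cells of the treated wells were not analysed here.

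Foxp3 is the transcription factor that defines regulatory T cells, which restrain other immune cells. TGF-β acts through a receptor kinase pair that phosphorylates Smad proteins, and the Smads switch on Foxp3, the integrin chain Itgae (CD103) and a set of feedback inhibitors of their own pathway. Retinoic acid binds nuclear receptors, turns on gut-homing receptors and the enzymes that degrade it, and is known to favour Foxp3 induction by TGF-β. Without these signals, CD8 T cells given antigen and IL-2 become killers with granzymes, perforin and the type 1 factors T-bet (Tbx21) and Eomes.

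Levels are log2 RMA values, in which a difference of 1 is a 2-fold change. Levels of different genes come from different probes and cannot be set against each other closely. RMA gives all arrays nearly the same distribution, so a change in total RNA per cell would not show. The median level over all genes was 5.60, and changes that start from levels near or below it are compressed. Changes are Foxp3-positive minus control, given with the standard error (SE) of a limma model over all 12 arrays and a p-value adjusted by Benjamini-Hochberg over 22180 genes. A gene is said to rise or fall where its adjusted p was under 0.05.

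The label genes were at the levels the sort would give. Foxp3 stood at 5.41, 5.23 and 6.33 in control arrays A, B and C and at 12.45, 12.46 and 12.53 in the positive arrays. The sort was made on its reporter, so this gap of 6.82 ± 0.23 is a check of the labels and not a result. Cd8b1, the β chain of CD8, lay between 11.84 and 12.01 on all 6 arrays, and Cd4 between 4.90 and 6.0. Cd8a, the α chain, measured 11.78, 11.72 and 11.87 in control cells and 12.58, 12.53 and 12.52 in positive cells. These 2 sets did not overlap, yet the difference of 0.75 ± 0.30 did not pass in the 12-array model (adjusted p = 0.112), which shares its estimate of spread with CD4 arrays that ran from 5.72 to 8.16. It passed when the 6 CD8 arrays were fitted alone (adjusted p = 0.000636).

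Arrays of one CD8 group correlated at 0.992 to 0.994 across genes, and arrays of different CD8 groups at 0.972 to 0.977. The first principal component of the CD8 arrays held 70.4% of their variance and separated the groups. The second held 10.2% and set control array C apart, at -23.97 against 5.65 and 16.12 for control arrays A and B. The labels do not say that replicates came from separate animals, but the arrays differed in sex-linked RNA. Xist, the RNA of the inactive X chromosome, read 11.18, 5.20 and 11.06 in control arrays A, B and C and 11.34, 4.74 and 10.74 in positive arrays A, B and C. Eif2s3y, a Y-linked translation factor, read 3.18, 9.07 and 7.84 in control cells and 3.67, 9.23 and 7.59 in positive cells. Array A of each CD8 group thus carried Xist alone, array B the Y-linked gene alone, and array C both. Kdm5d and Uty, also Y-linked, were high on the same 4 CD8 arrays. The pattern was the same in both CD8 groups, so it does not follow the comparison, and A, B and C were not repeat runs of 1 RNA pool. Among the CD4 arrays Eif2s3y was high on control array C and positive array B, with Xist high on all 6.

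**Figure D1:**
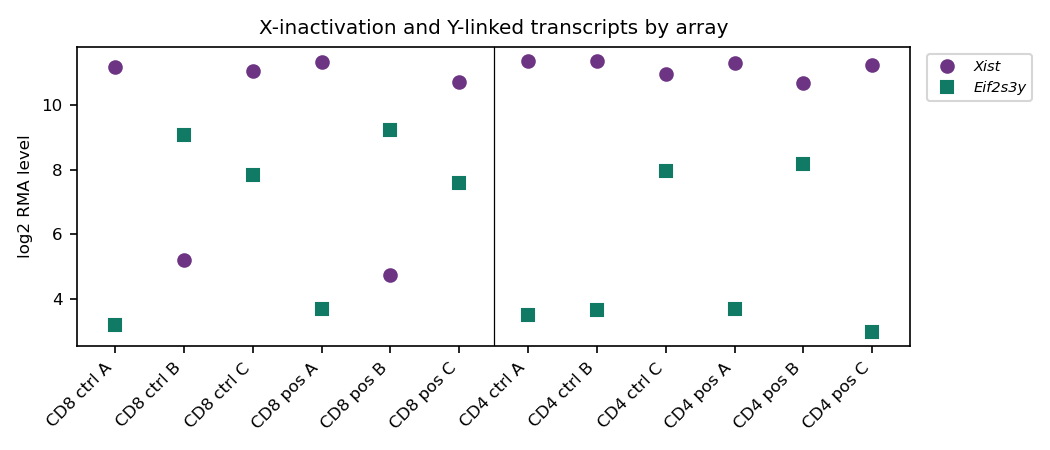
Log2 RMA levels of Xist (circles) and Eif2s3y (squares) on each of the 12 arrays, with CD8 arrays left of the line and CD4 arrays right of it; ctrl is control and pos Foxp3-positive. In CD8 cells arrays of the same letter match between the groups: Xist is low (5.20 and 4.74) and Eif2s3y high (9.07 and 9.23) on both B arrays, and both genes are high on both C arrays.

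Of the 22180 genes 4430 passed the test (20%), 2083 of them higher (9.39%) and 2347 lower (10.6%) in the Foxp3-positive cells; after cyclic loess between arrays the split was 2313 higher and 2133 lower. Large changes leaned the other way: 511 genes rose at least 2-fold (2.30%) and 292 fell at least 2-fold (1.32%). At 8-fold or more the counts were 46 higher and 16 lower. The median change over all genes was -0.02. Most calls were small, with 81.9% of them under 2-fold. For 33.5% of all genes the arrays of the 2 groups did not overlap in either direction. The 20% of all genes that passed counts dim genes too. In most gene lists below most members reached the median level, so their shares are not like for like with it.

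The leading rises were an integrin chain of tissue residence, an apolipoprotein L, a chemokine and genes known mainly from other tissues. Itgae, the α chain that binds E-cadherin and holds T cells in epithelium, read 5.31, 5.00 and 5.46 in control cells and 12.16, 12.12 and 12.26 in positive cells. Every positive array exceeded every control array by more than the whole spread within a group, and the change was 6.93 ± 0.12 (adjusted p = 3.83e-12). Apol9b, an interferon-inducible apolipoprotein L, stood at 4.09, 5.30 and 3.90 in control cells and at 10.51, 10.61 and 10.62 in positive cells. It rose by 6.15 ± 0.38, and its close copy Apol9a rose by 2.30 ± 0.17; probes can read both. Xcl1, the chemokine lymphotactin that attracts cross-presenting dendritic cells, went from 6.37, 6.55 and 6.93 to 11.46, 11.69 and 12.00. Both sets lay above the median level of all genes, with a change of 5.10 ± 0.17.

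Several of the other leading rises have their known roles outside T cells. Tph1, the enzyme that starts serotonin synthesis, measured 4.32, 4.50 and 4.96 in control and 9.85, 9.85 and 9.69 in positive cells. Hepacam2, an adhesion protein of the immunoglobulin superfamily, rose from between 3.57 and 3.92 to between 8.99 and 9.17. Car2 (carbonic anhydrase 2) rose by 4.97 ± 0.27, Csn2 (the milk protein β-casein) by 4.83 ± 0.33 and Psg17 (a pregnancy-specific glycoprotein) by 4.46 ± 0.26. Cpd, a carboxypeptidase of the secretory pathway, rose by 4.45 ± 0.22, and Hpgds, the synthase of prostaglandin D2, by 4.34 ± 0.21. Glp1r, the receptor of the incretin GLP-1, stood at 6.54, 5.99 and 6.34 against 10.13, 10.37 and 10.29. Of the 24 measured genes in the list of serotonin, steroid, eicosanoid and hormone genes 7 rose and 4 fell, with a median change of 0.05; 6 of the 7 rose at least 2-fold, and 45.8% of the list passed in either direction. Ddc, the next enzyme of serotonin synthesis, rose by 0.42, and Maoa, which breaks serotonin down, fell by 1.24.

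Ly6c2 led the falls. It encodes the Ly6C surface antigen of effector and memory CD8 cells, and it read 12.42, 12.76 and 12.26 in control cells and 5.14, 6.64 and 6.15 in positive cells. The lowest control array was far above the highest positive array, and the change was -6.50 ± 0.36 (adjusted p = 6.20e-08). Ly6c1, whose copy is nearly the same and may share probes, was dim in both groups and fell by 0.86. Sema4a, a semaphorin of activated T cells, fell from 10.01, 10.12 and 9.55 to 5.77, 5.69 and 5.81. Ccr2, the receptor that draws effector cells into inflamed tissue, fell from 9.39, 9.34 and 9.30 to 5.71, 5.25 and 5.43. Positive arrays of both genes were at about the median level of all genes. Galnt3, which adds the first sugar of O-glycans, fell by 3.59 ± 0.13, Ier3, an early response gene, by 3.50 ± 0.23, and Adam8, a surface protease, by 3.41 ± 0.16. Gpr141, an orphan receptor, fell by 3.20 ± 0.29 from levels of 7.03 to 7.68. All 24 leading genes, Foxp3 among them, kept their call and direction in each of 16 alternative fits. They were chosen for size and for passing in these same arrays, so the refits are no separate support for them.

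**Figure D2:**
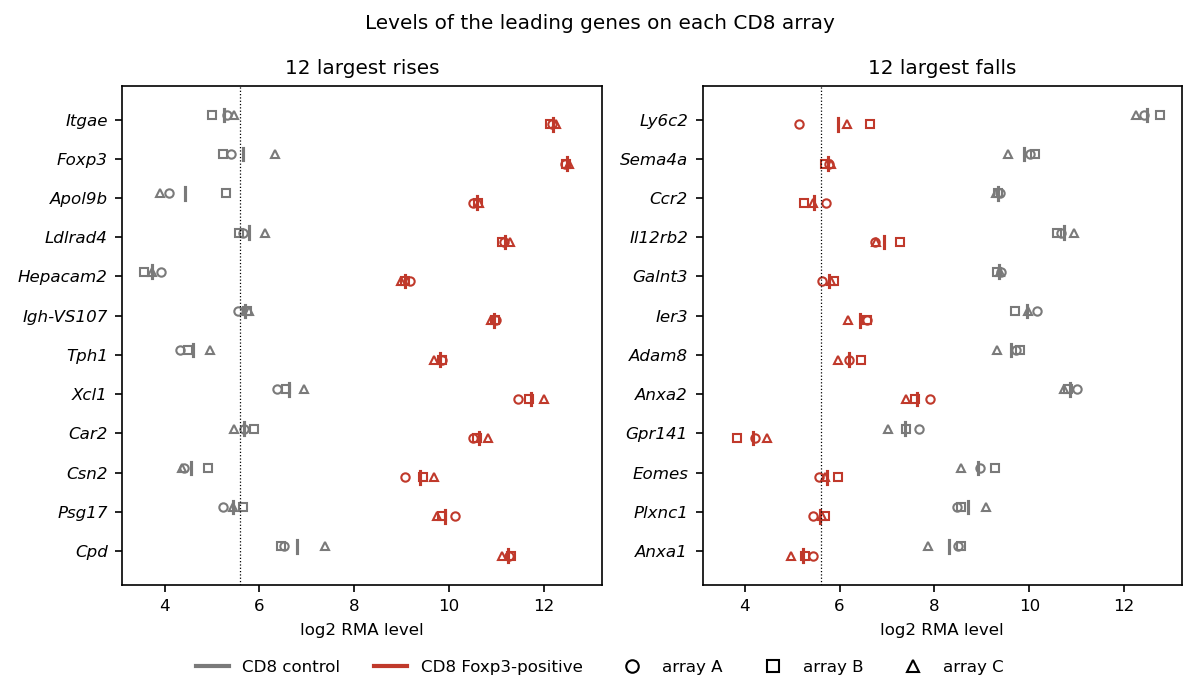
Log2 RMA level of the 12 genes with the largest rise (left) and the 12 with the largest fall (right) on each CD8 array; symbols are arrays A, B and C, short bars are group means (grey control, red Foxp3-positive, 3 arrays each), and the dotted line is the median level of all genes, 5.60. These genes were chosen for size, for passing the test and for groups that do not overlap. Foxp3, whose gap was set by the sort, is among the rises. The largest changes on the 2 sides are 6.93 for Itgae and -6.50 for Ly6c2.

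The Foxp3 and Csn2 promoters are printed because these genes are among the largest rises and their windows hold letters that factors downstream of retinoic acid or IL-2 are known to bind. Sequences are the 250 bases before an annotated start in RefSeq (build GRCm38.p6), with matches in capitals. Foxp3 has 2 annotated starts in the table, and the window with more matches is shown (chrX:7580233-7580482, plus strand). Csn2 has 1 (chr5:87699426-87699675, minus strand). In Foxp3 the capitals mark AGGTCA, letters bound by retinoic acid receptors and other nuclear receptors, 91 bases before the start and, on the opposite strand, 70 bases before it. They also mark TTCNNNGAA, the palindrome that STAT proteins bind, 139 bases before the start. In Csn2 the capitals mark TTCNNNGAA 93 bases before the start.
Foxp3: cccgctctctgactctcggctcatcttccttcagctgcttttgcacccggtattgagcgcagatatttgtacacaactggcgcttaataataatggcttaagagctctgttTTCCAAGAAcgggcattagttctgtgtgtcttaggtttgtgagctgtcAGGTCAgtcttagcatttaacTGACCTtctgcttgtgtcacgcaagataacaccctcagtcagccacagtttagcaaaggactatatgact
Csn2: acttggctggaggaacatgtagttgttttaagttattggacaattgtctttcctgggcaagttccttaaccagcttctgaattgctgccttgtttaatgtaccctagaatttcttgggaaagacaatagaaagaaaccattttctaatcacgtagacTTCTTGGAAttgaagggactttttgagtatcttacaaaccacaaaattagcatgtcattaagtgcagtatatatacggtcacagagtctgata
Such letters are common. AGGTCA was found on either strand in 14.4% of the windows of 16990 measured genes, in 12.4% of 388 genes that rose at least 2-fold and in 15.0% of 233 that fell at least 2-fold. TTCNNNGAA was found in 7.82%, 8.25% and 6.01% of these sets. AGACAGAC, a paired Smad site, was found in 1.64%, 3.35% and 2.15%, which is 13 of the 388 rising genes. GTCTAGAC, the Smad palindrome, was found in 0.21% of all windows and in 0 of the 388. TGACTCA, the AP-1 site, was found in 4.89%, 6.19% and 7.30%. A match describes the letters of a window and not a bound site.

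Genes of the Smad pathway rose, with receptors and brakes of the pathway among the largest rises. Of 24 measured members 12 rose and 3 fell, with a median change of 0.55, and 10 of the 12 rose at least 2-fold. Ldlrad4, a membrane protein that keeps Smad2 and Smad3 from the receptor, read 5.66, 5.57 and 6.11 in control and 11.15, 11.12 and 11.29 in positive cells. Its change of 5.40 ± 0.13 was far outside the spread of either group. Pmepa1, a relative of Ldlrad4 with the same action, rose by 2.86 ± 0.15. Skil and Ski, nuclear repressors of Smad targets, rose by 2.52 ± 0.09 and 2.04. Smad7, Smurf1 and Smurf2, which take the receptor down, rose by 1.12, 1.12 and 1.34.

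Among the receptors Tgfbr1, the type I TGF-β receptor, went from 6.92, 6.97 and 6.73 to 9.58, 9.46 and 9.39, while Tgfbr2, its type II partner, stood at 9.18 to 9.33 and at 9.31 to 9.46 (adjusted p = 0.524). The activin receptor Acvr2a rose by 3.27 ± 0.12 and the bone morphogenetic protein receptor Bmpr2 by 2.58 ± 0.16. Smad4, the shared partner of all Smads, measured 9.36 to 9.51 in both groups. The 3 members that fell were Eng, Smad1 and Smad2, by 0.56, 0.46 and 0.26. Eng, an accessory TGF-β receptor, overlapped between the groups and lost its call without control array A or C or positive array A or B (adjusted p = 0.112 to 0.17), with a change of -0.35 without control array C. The count of falls was 1 or 2 without any 1 CD8 array.

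On the side of the ligands 4 of 16 measured genes rose and 3 fell, with a median change of 0.01. Tgfb3 rose from 5.74, 5.32 and 6.35 to 8.58, 8.98 and 8.66, a change of 2.94 ± 0.24. Tgfb1, the ligand that T cells mainly make, stayed between 10.69 and 11.03 on all 6 arrays (adjusted p = 0.949). Lrrc32, the GARP protein that anchors latent TGF-β on regulatory T cells, measured 9.42, 8.98 and 8.45 in control cells and 10.54, 10.54 and 10.74 in positive cells. Furin, the protease that matures pro-TGF-β, rose by 2.25 ± 0.09, and the integrin chain Itgav, which activates it, by 0.39. Nrros, the anchor used by myeloid cells, fell by 0.89 ± 0.15. The falls of Gdf11 and Ltbp4 were 0.73 and 0.35.

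Of 19 measured genes that receive or handle retinoic acid 6 rose, 2 fell and 11 did not pass, with a median change of 0.19. Dhrs3, which returns retinal to retinol and is a known retinoic acid target, read 6.16, 5.97 and 6.81 in control and 9.40, 9.19 and 9.29 in positive cells, a change of 2.98 ± 0.22. Cyp26b1 and Cyp26a1, which degrade retinoic acid, rose by 1.38 ± 0.18 and 0.78 ± 0.21. Cyp26a1 stayed below the median level of all genes on all 6 arrays, the highest being 5.37. Tgm2, a transglutaminase, rose by 1.88 ± 0.33 and Nrip1, a corepressor, by 1.93 ± 0.13. The count of falls was 1 without control array A or B or positive array A. Rdh10, which makes retinal, rose by 0.56, while Rdh11, a retinal reductase, fell by 1.07 ± 0.09 and Rxra, the shared partner of nuclear receptors, by 0.51. Rara, a receptor of retinoic acid, read 7.85, 7.55 and 7.51 against 7.96, 7.91 and 7.88 and did not pass (adjusted p = 0.0566).

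Homing and retention genes changed in most members: of 17 measured 8 rose and 5 fell, with a median change of 0.40. That is 76.5% of the list against 20% of all genes. All 17 reached the median level, while the 20% counts dim genes too. Cdh1 (E-cadherin, the ligand of the CD103 integrin) read 6.25, 5.96 and 5.83 in control and 9.87, 10.08 and 10.08 in positive cells. Ccr9, the receptor for the small-intestine chemokine, read 6.09, 5.45 and 5.84 against 9.71, 9.46 and 9.56. Cd101, a surface protein of tissue-resident and regulatory T cells, rose by 3.72 ± 0.10. These 3 genes were near or somewhat above the median of all genes in control cells and well above it on every positive array. Itgb7, the β chain that pairs with Itgae, rose by only 0.40 ± 0.12 from levels of 10.28 to 10.52. Itga4, its other partner, measured 9.77 to 10.42 in control and 10.22 to 10.72 in positive cells and did not pass (adjusted p = 0.121), though it did without control array C (adjusted p = 0.0305).

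Exit receptors fell. S1pr1, which leads T cells out of tissue into lymph and blood, went from 9.52, 9.21 and 9.79 to 8.37, 7.72 and 8.29, a change of -1.38 ± 0.19. Gpr183, an oxysterol receptor of T cell positioning, fell by 1.35 ± 0.17 and Klf2, the factor that drives S1pr1, by 0.58 ± 0.17. Cd69, which takes S1pr1 off the surface, rose by 1.09. Ccr7, the lymph node receptor, rose by 1.52 ± 0.19, so not all lymphoid-tissue receptors fell. The count of falls in this list was 3 when the 6 CD8 arrays were fitted alone and 3 without control array A. In CD4 cells S1pr1 rose by 0.81, and the interaction, that is the CD8 change minus the CD4 change, was -2.19 (adjusted p = 0.000169).

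Chemokine receptors other than these split, with 5 of 17 higher and 3 lower and a median change of 0.01. Ccr8, a receptor of skin and of tumour regulatory T cells, rose from 3.81, 4.43 and 4.00 to 7.25, 7.49 and 7.62. Cxcr5, which leads T cells to B cell follicles, rose from 6.27, 6.12 and 6.65 to 9.19, 9.66 and 9.33. Ccr4, Ccr6 and Cx3cr1 rose by 1.57, 0.81 and 0.71. Receptors of effector cells fell: Ccr2 as given above, Cxcr6 by 1.67 and Cxcr4 by 0.69. Cxcr3, the type 1 receptor, measured 9.01 to 9.36 in control and 9.11 to 9.45 in positive cells (adjusted p = 0.691). Among 14 chemokine ligands Xcl1 and Ccl4 rose and Ccl5 fell by 2.50 ± 0.26, from 11.07 to 11.25 down to 8.14 to 9.15. These 3 are 21.4% of the list, near the 20% of all genes. The count of rises was 1 without control array B or positive array B or C and 3 without positive array A, and that of falls was 2 without control array A or positive array A.

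The killer and type 1 programme was lower in the positive cells. Of 17 type 1 genes 12 fell and 2 rose, with a median change of -0.79. Il12rb2, the signalling chain of the IL-12 receptor, read 10.67, 10.59 and 10.95 in control and 6.75, 7.27 and 6.76 in positive cells, a change of -3.81 ± 0.39. Eomes fell from 8.96, 9.27 and 8.55 to 5.56, 5.97 and 5.69, and T-bet (Tbx21) from 8.85, 9.20 and 8.67 to 6.25, 6.80 and 6.75. Both factors thus fell without overlap, and Ifng, the cytokine they drive, fell by 2.26 ± 0.25. The IL-18 receptor chains Il18rap and Il18r1 fell by 1.44 and 1.40. Stat4, which carries the IL-12 signal, stayed between 11.57 and 11.94 on all 6 arrays. The 2 rises were Csf2, by 0.82, and Tnf, by 0.84 ± 0.22. Tnf was lowest on control array C (9.56 against 10.49 and 10.45), and without that array its change moved by more than 1.5 times, to 0.53; without positive array A or B it did not pass (adjusted p = 0.0526 and 0.0541).

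Of 24 granule genes 12 fell and 4 rose, with a median change of -0.56. Gzmk fell from 8.12, 8.10 and 8.70 to 5.59, 5.74 and 5.74. Gzmb, the main killer granzyme, read 13.34, 13.25 and 13.04 against 11.79, 11.84 and 11.69, a change of -1.44 ± 0.39. Perforin (Prf1) fell by 1.25 ± 0.29, from 10.30, 10.61 and 9.42 to 8.83, 8.89 and 8.84. Gzmd fell by 3.00 ± 0.63, but its control arrays ran from 4.80 (array C) to 8.16 (array B), a spread as large as the change. Granzymes are a family of near copies, and values of single members may share probes. The serpins Serpinb6b and Serpinb9, which protect the killer from its own granzymes, fell by 2.86 and 1.84. Ctsw, a protease of killer cells, rose by 1.30 ± 0.11, and Ctsc, which activates granzymes, by 0.60. Nkg7, a granule membrane protein, measured 11.63 to 11.91 in control and 11.52 to 11.75 in positive cells (adjusted p = 0.51). In bulk arrays fewer cells of a kind and less RNA per cell cannot be told apart, so a fall may lie in all positive cells or in some.

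Genes induced by interferon moved in 2 directions. The guanylate-binding proteins (GBP) and immunity-related GTPases (IRG), which attack vacuoles of intracellular microbes and are classic targets of interferon-γ, rose in 10 of 17 members, Irf1 and Irf8 included, and fell in 0, with a median change of 0.72. Iigp1 rose from 6.20, 6.74 and 5.44 to 9.18, 9.53 and 9.46, and Gbp2b from 5.01, 4.82 and 4.48 to 7.30, 7.59 and 7.06. Irgm2 rose from 7.75, 7.81 and 7.59 to 8.76, 9.04 and 8.96, Gbp5 by 0.98 ± 0.10 and Igtp by 0.72 ± 0.13. The brightest member that did not pass was Gbp7, at 10.19 to 10.59 against 10.81 to 10.92 (adjusted p = 0.065). These values did not overlap, and Gbp7 did pass when the 6 CD8 arrays were fitted alone and under several other settings. Ifngr2, the chain that limits interferon-γ signalling in T cells, rose by 2.29 ± 0.14 while Ifng itself fell, as given above.

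Type I interferon-stimulated genes, 27 measured, rose in 4 and fell in 8, with a median change of -0.08. The falls were headed by the membrane proteins that block virus entry: Ifitm2 went from 8.09, 8.30 and 7.22 to 4.75, 5.59 and 4.27, Ifitm3 from 9.11, 9.05 and 7.83 to 5.63, 6.22 and 5.95, and Ifitm1 from 7.91, 7.90 and 6.75 to 4.75, 4.91 and 4.84. Control array C was the lowest control in all 3, yet still above every positive array. Mx1, a GTPase against influenza virus, fell by 2.35 ± 0.18, Bst2 (tetherin) by 1.28 ± 0.16 and Oas3 by 0.88 ± 0.12. Common members were near their control level: Isg15 read 5.94, 5.85 and 5.48 against 5.45, 5.81 and 5.77, and Ifit1 5.79 to 6.20 against 5.51 to 5.79. Zbp1, a sensor of Z-form nucleic acid, rose by 0.99 ± 0.12, and Irf9, Isg20 and Trim30a rose by 0.63, 0.56 and 0.37. In CD4 cells 25 of the 27 fell, with a median change of -2.28, and the CD8 and CD4 changes differed by the interaction test in 22.

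**Figure D3:**
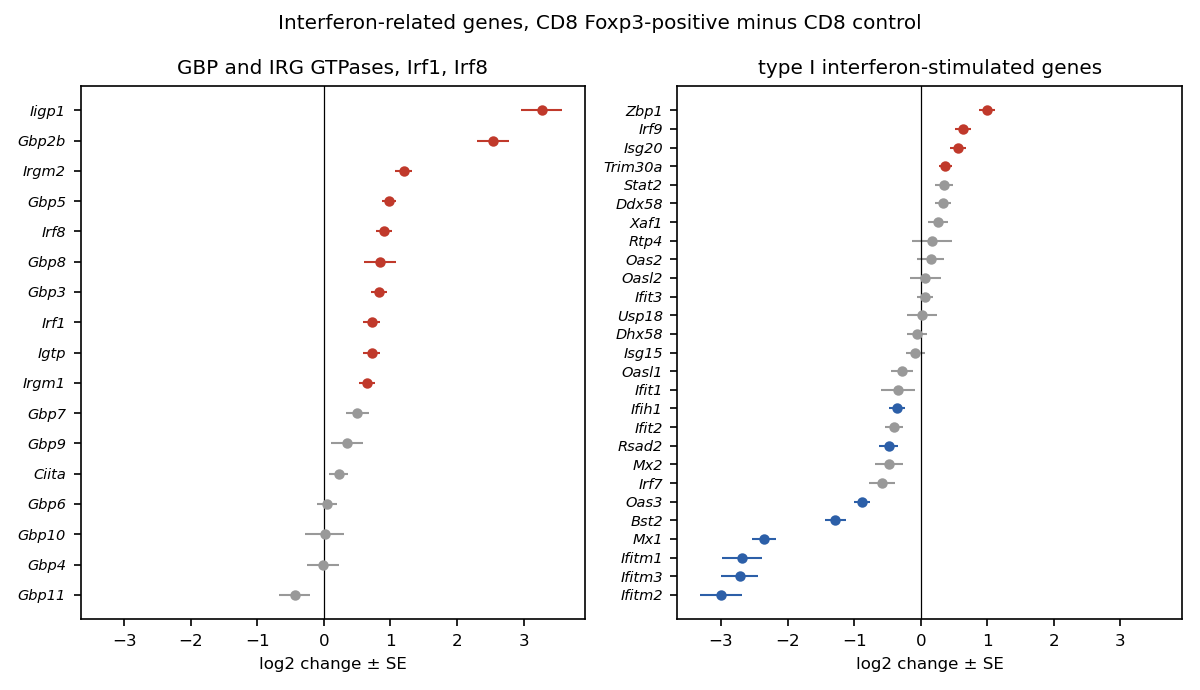
Log2 change in CD8 cells (Foxp3-positive minus control) with its SE for 17 GBP, IRG and linked regulator genes (left) and 27 type I interferon-stimulated genes (right); red passed and higher, blue passed and lower, grey did not pass, 3 arrays a group. On the left 10 genes lie above 0 past the test and 0 below, while on the right Ifitm1, Ifitm2, Ifitm3 and Mx1 fell by more than 2 and most genes lie near 0.

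Promoter windows of 4 of these genes are shown because the 2 families differ in their response and both are known for interferon motifs. Capitals mark GAAANNGAA, the core of the interferon-stimulated response element, and TTCNNNGAA, the STAT palindrome, which also fits the gamma-activated site. The windows lie at chr11:58214727-58214976, plus strand for Irgm2, at chr11:58199306-58199555, plus strand for Igtp, at chr3:142496684-142496933, plus strand for Gbp5 and at chr7:140955962-140956211, minus strand for Ifitm2.
Irgm2: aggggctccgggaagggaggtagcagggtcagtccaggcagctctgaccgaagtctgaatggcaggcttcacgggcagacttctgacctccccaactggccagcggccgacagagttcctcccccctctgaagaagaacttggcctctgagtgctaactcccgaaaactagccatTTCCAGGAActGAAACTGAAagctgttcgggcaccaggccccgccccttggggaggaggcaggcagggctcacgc
Igtp: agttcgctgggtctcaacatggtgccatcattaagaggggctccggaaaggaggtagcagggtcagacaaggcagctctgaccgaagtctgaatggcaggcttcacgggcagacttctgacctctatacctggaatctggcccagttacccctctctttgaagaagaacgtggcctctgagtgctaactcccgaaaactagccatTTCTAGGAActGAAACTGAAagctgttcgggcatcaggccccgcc
Gbp5: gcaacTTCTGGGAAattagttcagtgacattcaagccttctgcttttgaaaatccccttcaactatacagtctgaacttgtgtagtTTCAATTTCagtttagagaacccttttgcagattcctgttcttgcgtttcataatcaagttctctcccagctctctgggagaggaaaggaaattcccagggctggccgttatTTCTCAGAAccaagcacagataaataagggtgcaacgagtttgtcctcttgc
Ifitm2: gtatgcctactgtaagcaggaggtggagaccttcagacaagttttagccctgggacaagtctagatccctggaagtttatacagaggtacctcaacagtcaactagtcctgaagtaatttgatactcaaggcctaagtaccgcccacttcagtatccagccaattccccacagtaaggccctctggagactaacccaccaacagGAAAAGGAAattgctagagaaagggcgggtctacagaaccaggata
The 2 motifs do not overlap in these windows. In Irgm2 and Igtp, neighbours on chromosome 11, a STAT palindrome stands just before a GAAANNGAA match, 75 and 64 bases before the start in Irgm2 and 45 and 34 bases before it in Igtp. Their windows share an unbroken run of 55 bases, so they are related copies and not separate examples. Gbp5 holds GAAANNGAA on the opposite strand 164 bases before the start and TTCNNNGAA at 245 and 52. Ifitm2, which fell, holds GAAANNGAA 46 bases before the start and no match to the palindrome. GAAANNGAA occurred in 7 of 9 genes of the GBP and IRG list with a window (77.8%), in 10 of 20 type I genes (50.0%) and in 7.97% of all. The 9 include the regulators Irf1 and Irf8, which lack this motif. Both motifs together occurred in 4 of the 9 (44.4%), in 1 of the 20 (5.00%) and in 1.03% of all windows. The 4 are Gbp5, Gbp7 and the related copies Igtp and Irgm2, so all rising genes printed here come from them. Gbp2b, Gbp3, Irgm1, Irf1 and Irf8 also rose and lack the pair, and Gbp7 holds it but did not pass. The type I gene with both motifs is Bst2, which fell. The difference between the families was not tested.

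Receptors of cytokines rose more often than they fell. Of 18 receptors of the common gamma chain and related families 9 rose and 1 fell, with a median change of 0.32. Il2ra (CD25), the high-affinity IL-2 receptor chain, read 12.40, 12.36 and 12.08 against 12.88, 12.86 and 12.78. Il6st, the shared IL-6 receptor chain, rose by 1.70 ± 0.18 and Il4ra by 0.85. The single fall, of Il2rb by 0.37 ± 0.12, did not pass without any 1 of 5 arrays (adjusted p = 0.0892 to 0.188). Among 14 brakes of cytokine signalling Socs2, Cish, Socs3, Socs5 and Socs1 rose, by 1.24, 1.17, 1.12, 0.96 and 0.89, and Ptpn22 fell by 0.44. Ptprc (CD45) measured 11.99 to 12.44 on the 6 arrays (adjusted p = 0.188).

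Of 22 T cell cytokines 3 rose and 2 fell (22.7%, near the 20% of all genes), with a median change of 0.00; 1 fell without control array A or B or positive array A. Lif, a relative of IL-6, rose from 6.55, 6.49 and 5.62 to 8.91, 8.80 and 8.29, while Csf2 and Il4 rose by 0.82 and 0.59. Il10, the suppressive cytokine, read 5.89, 6.17 and 5.70 against 6.55, 6.73 and 7.08, without overlap, and its change of 0.87 ± 0.30 did not pass (adjusted p = 0.0592). Ebi3, a chain of IL-35 and IL-27, measured 7.75 to 8.18 and 7.93 to 8.29 (adjusted p = 0.282). Of 12 regulators of Il10 7 rose and 1 fell, with a median change of 0.57; without control array C 2 fell, and under other settings up to 3. Maf, a factor of IL-10 producing T cells, rose from 5.55, 5.68 and 5.01 to 8.93, 8.83 and 9.07, and Ahr, the aryl hydrocarbon receptor, from 6.53, 5.67 and 6.29 to 9.34, 9.22 and 9.14. Ahrr, the repressor that Ahr induces, rose by 2.28 ± 0.12. In CD4 cells Maf fell by 0.65 and Ahr did not pass, with interactions of 4.19 (adjusted p = 1.95e-07) and 2.56 (adjusted p = 4.35e-05).

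Partners of Foxp3 in regulatory T cells moved both ways: of 22 measured 7 rose and 5 fell, with a median change of 0.14. Ikzf4 (Eos), a corepressor of Foxp3, rose from 7.36, 7.37 and 7.09 to 9.86, 10.03 and 10.09. Id3 rose by 1.87 ± 0.21, Runx1, the partner that binds Foxp3, by 1.71 ± 0.12, and Bcl6 by 1.34 ± 0.14. Satb1, which Foxp3 is known to repress, fell from 9.60, 9.43 and 9.60 to 8.53, 8.13 and 8.54. Ikzf2 (Helios), common in thymic regulatory T cells, read 8.58, 8.23 and 9.71 against 9.72, 9.0 and 9.95, so the groups overlapped (adjusted p = 0.244). The count of falls here was 3 without positive array C. Runx3, the CD8 lineage factor, stayed between 10.08 and 10.40 (adjusted p = 0.661), and Prdm1 (Blimp-1) measured 9.0 to 9.56 against 8.38 to 8.76 and did not pass (adjusted p = 0.081), though it did in the 6 CD8 arrays alone.

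Of 20 genes in a list of inhibitory receptors and linked genes 11 rose and 2 fell (median change 0.62). Besides receptors the list holds the ligands Cd200, Cd274 and Pdcd1lg2, the enzyme Entpd1 and the factors Tox, Tox2 and Nr4a1. Cd200 rose from 5.37, 4.78 and 6.32 to 7.76, 7.86 and 7.94, Tox, a factor of exhausted cells kept in this list, by 2.05 ± 0.17 and Tigit by 1.39 ± 0.16. Ctla4, through which regulatory T cells strip ligands from dendritic cells, read 10.79, 10.36 and 11.09 against 11.54, 11.49 and 11.41. The 2 falls were large: Havcr2 (Tim-3) went from 10.07, 10.29 and 9.87 to 6.94, 6.98 and 7.19, and Pdcd1 (PD-1) from 8.79, 8.77 and 8.94 to 7.56, 7.51 and 7.76. PD-1 and Tim-3 were thus lower while Tigit and Ctla4 were higher in the same sorted population. In CD4 cells Pdcd1 rose by 0.44, with an interaction of -1.67 (adjusted p = 5.67e-05).

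Nucleotide signalling held 2 of the larger changes, with 5 of 14 genes higher and 3 lower and a median change of 0.37. Nt5e (CD73), which makes adenosine from AMP, rose from 7.53, 7.29 and 8.19 to 11.63, 11.63 and 11.51, and Entpd1 (CD39), which makes the AMP, by 1.08 ± 0.12. P2rx7, a channel opened by extracellular ATP, rose from 7.08, 6.54 and 7.40 to 10.63, 10.57 and 10.55. Ada and Adk, which remove adenosine, fell by 0.81 and 1.16. P2ry14, a receptor of UDP sugars, fell by 2.11 ± 0.31 from 9.26, 9.35 and 8.11.

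TNF receptors rose in 8 of 16 and fell in 3 (median change 0.42), and TNF ligands rose in 6 of 13 and fell in 1 (median change 0.35). Tnfrsf13b (TACI), mostly known from B cells, rose from 5.60, 5.38 and 6.0 to 7.87, 7.70 and 7.73, and Tnfsf10 (TRAIL) from 6.88, 6.67 and 6.93 to 9.17, 9.02 and 9.18. Tnfsf11 (RANKL) rose by 2.10 ± 0.09 and Lta by 1.39 ± 0.30. Lta was lowest on control array C (8.37 against 9.71 on A and B). Tnfrsf8 (CD30) fell by 1.70 ± 0.22, Tnfrsf21 by 1.15 and Tnfrsf9 (4-1BB) by 0.94, with its ligand Tnfsf9 down by 0.92 ± 0.16. Tnfrsf18 (GITR), a usual marker of regulatory T cells, measured 10.22 to 10.58 against 10.69 to 10.83 and did not pass (adjusted p = 0.0821).

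The list of the CD28 and SLAM families also holds ligands, adaptors and other surface proteins such as Cd24a, Izumo1r, Cd6 and Cd7. Of its 19 measured genes 9 rose and 5 fell (median change 0.37). Cd24a, a ligand of Siglec receptors, rose from 7.46, 6.73 and 7.19 to 11.07, 11.09 and 10.92, and Izumo1r (folate receptor 4, a regulatory T cell marker) from 5.73, 5.81 and 6.06 to 8.76, 8.75 and 8.95. Cd28 itself fell by 1.36 ± 0.11. Slamf7, a receptor of killer cells, fell by 2.11 ± 0.20, and the SLAM adaptor Sh2d1a by 1.31 ± 0.16. Killer lectin-like receptors rose in 4 of 16 and fell in 1 (median change 0.11): Klra5, Klri2, Klrc3 and Klrd1 rose by 3.94, 2.75, 1.81 and 0.97, and Klrg1, a mark of end-stage effectors, fell by 0.79 from levels below the median of all genes. Klra and Klr genes are near copies, so single members are uncertain.

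Signalling genes close to the T cell receptor changed little: of 23 measured 7 rose and 4 fell, with a median change of 0.17. Ubash3b, a phosphatase that damps the receptor, rose by 1.10 ± 0.09, and Themis, a modulator of its threshold, fell by 0.87 ± 0.12. Early response genes rose in 11 of 24 and fell in 2 (median change 0.29). Jun rose from 8.79, 8.57 and 8.53 to 11.07, 11.20 and 11.12 and Egr3 by 1.65 ± 0.15, while Egr1 fell by 1.33 ± 0.18; without control array C 4 genes of this list fell. Myc read 10.67 to 11.06 and 11.04 to 11.28 and did not pass (adjusted p = 0.111). Brakes of MAP kinases split into 7 higher and 6 lower of 22: Rgs10 and Rgs1, which end G protein signals, rose by 2.55 ± 0.13 and 2.48 ± 0.20 and Spry1 by 1.47, and the ERK phosphatases Dusp6 and Dusp5 fell by 1.36 ± 0.14 and 1.26 ± 0.09. Fosl2 and Batf, AP-1 factors of effector T cells, fell by 1.58 ± 0.20 and 0.84.

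Annexins, S100 proteins and galectins, many of which rise as T cells become effector or memory cells, fell in 10 of 21 and rose in 4 (median change -0.48). Anxa2 went from 11.01, 10.82 and 10.73 to 7.91, 7.58 and 7.41, and Anxa1 from 8.49, 8.57 and 7.87 to 5.44, 5.28 and 4.97. Lgals3 fell by 1.32 ± 0.20 and S100a4 by 1.24 ± 0.16, while S100a1 rose by 1.83 ± 0.11. Integrins other than Itgae split, with 6 of 17 higher in all and 5 lower. Itgb3 fell by 2.71 ± 0.32, Itgal (LFA-1) from 10.39, 10.46 and 10.21 to 8.13, 8.21 and 8.36, and Itgax (CD11c) by 1.76 ± 0.13. Itgb2, the β chain of the last 2, stayed between 11.82 and 11.98.

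Glycan enzymes fell in 12 of 30 and rose in 8 (median change -0.15). Galnt3 read 9.41, 9.31 and 9.38 against 5.62, 5.88 and 5.82, and Fut7, which completes selectin ligands, fell by 1.52 ± 0.22, while Gcnt1, which branches O-glycans, rose by 1.48 ± 0.15. Among semaphorins, plexins and neuropilins 3 of 18 rose and 4 fell. Nrp1 (neuropilin 1), a co-receptor for semaphorins and TGF-β and a regulatory T cell marker, rose from 7.05, 6.83 and 7.07 to 9.72, 9.53 and 9.68, while Plxnc1 fell from 8.47, 8.57 and 9.08 to 5.43, 5.69 and 5.64. Motility and cytoskeleton genes fell in 16 of 33 and rose in 7 (median change -0.28): Ahnak fell by 1.21 ± 0.13, Capg, which caps actin, rose by 1.64 ± 0.11, and Vim (vimentin) stayed between 13.19 and 13.44. Of 23 surface proteases and their inhibitors 8 rose, led by Adamts6 at 2.70 ± 0.15 and Timp2 at 2.34 ± 0.19, and 2 fell, Adam8 and Adamts14.

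Cell division genes were lower by small and even amounts. Of 34 genes of DNA replication 32 fell and 0 rose, with a median change of -0.61. Of 39 genes of mitosis and the spindle 35 fell and 0 rose, with a median of -0.48. Uhrf1, which copies DNA methylation at the fork, had the largest fall of the first list, from 9.99, 10.04 and 9.71 to 8.86, 9.04 and 8.60, and Plk4, the kinase of centriole copying, of the second, from 9.22, 9.36 and 9.30 to 8.69, 8.65 and 8.47. Only Uhrf1 fell at least 2-fold in these lists. Mki67, a general mark of dividing cells, read 11.96, 11.95 and 11.97 against 11.69, 11.56 and 11.48, so levels stayed high in both groups. The count of falling mitosis genes ranged from 26 to 34 when 1 CD8 array was left out, and that of replication genes from 30 to 32. In CD4 cells 13 of the 39 mitosis genes rose and 0 fell, with a median of 0.23, and 35 of the 39 differed by the interaction test, against 13.5% of all genes.

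Cyclins and cell cycle inhibitors fell in 12 of 25 and rose in 3 (median change -0.39). Cdk6 fell by 1.19 ± 0.12 and Ccnd3 by 0.75, but so did the inhibitor Cdkn1a (p21), by 1.12 ± 0.10, and Trp53inp1 rose by 1.76 ± 0.17. Histone genes fell in 6 of 9, led by H4c1 and H1f3, by 1.07 ± 0.23 and 1.02 ± 0.11. Chromatin silencers of DNA methylation and Polycomb fell in 9 of 22 and rose in 4. Hells, a remodeller needed for DNA methylation, fell from 9.72, 9.84 and 9.61 to 8.52, 8.61 and 8.25, Ezh2 by 0.91 ± 0.10 and Dnmt1, the maintenance methyltransferase, by 0.56 ± 0.09. Kdm6b, which removes the Polycomb mark, rose by 1.01 ± 0.11. Its X-linked relative Kdm6a read 10.23, 9.54 and 10.16 against 10.55, 9.85 and 10.31, lowest on both B arrays, where Xist was low.

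Genes of sterol synthesis and of amino acid supply were lower. Of 29 genes of sterol synthesis and other SREBP targets 22 fell and 3 rose, with a median change of -0.65. Hmgcs1, at the head of the pathway, read 11.33, 11.13 and 11.82 against 9.90, 9.91 and 9.52, and Sqle fell by 1.18 ± 0.12. Fads2, a fatty acid desaturase, fell by 1.92 ± 0.30. Abca1 and Abcg1, which carry cholesterol out and are controlled by other receptors, rose by 1.88 ± 0.11 and 1.04 ± 0.11, and Elovl6 rose by 0.87. Of 30 ATF4 targets and amino acid carriers 22 fell and 2 rose, with a median of -0.80. Asns (asparagine synthetase) went from 9.76, 9.78 and 9.46 to 6.99, 7.24 and 7.07, and the transporter chain Slc7a5 from 11.33, 11.18 and 10.45 to 9.10, 9.30 and 8.90. Atf4 itself fell by 0.84. The 2 rises were Wars, by 0.70 ± 0.12, and Sesn2, by 0.52; 1 of them passed without control array C or positive array B or C.

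Housekeeping programmes moved less. Glycolysis and hypoxia genes fell in 7 of 26 and rose in 0 (median change -0.30): Slc16a1, the lactate carrier, fell by 1.49 ± 0.12, and Gapdh stayed between 13.38 and 13.50. That count was 3 without control array A or positive array C and 4 without positive array B. Respiratory chain genes fell in 6 of 32 and rose in 1, Ndufa1, with a median of -0.10, and proteasome genes fell in 4 of 35 and rose in 1, Tapbp, with a median of -0.20. Both shares lie near or under the background of 20%. That background counts dim genes too, whereas 32 of the 32 respiratory chain and 34 of the 35 proteasome genes reached the median level. Of the 4430 calls over all genes 4107 (92.7%) were kept when dim genes were left out. The share among brighter genes alone is not given here. Without control array A or B or positive array A or C the respiratory chain count was 3. Ribosome biogenesis genes fell in 15 of 32 and rose in 0 (median change -0.41). These counts leaned on single arrays: without control array C 27 ribosome biogenesis genes and 15 proteasome genes fell, and without control array A or B 6 and 1 did.

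**Figure D4:**
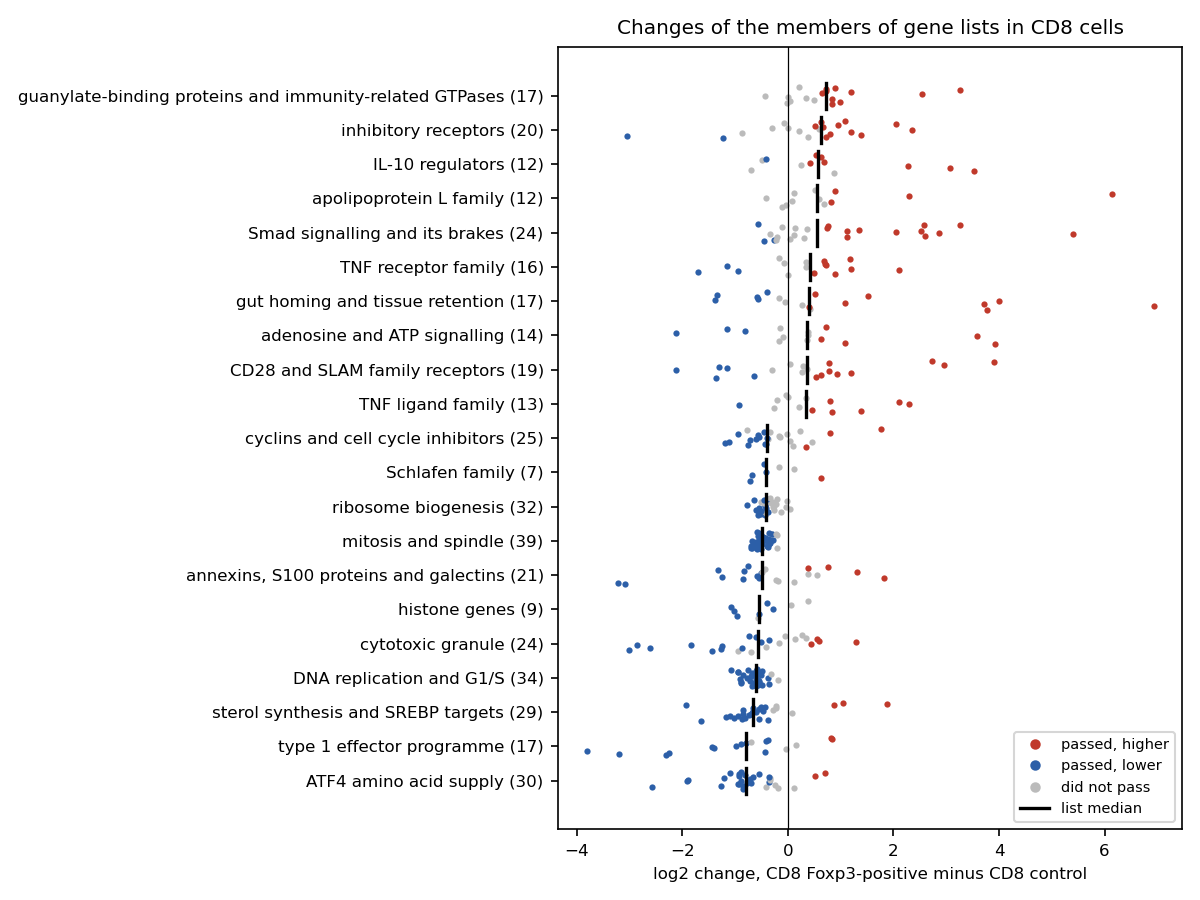
Log2 change in CD8 cells of each measured member (points) of the gene lists whose median (black bar) was at least 0.35 from 0, with the number measured in brackets; red passed and higher, blue passed and lower, grey did not pass. Points of the DNA replication and mitosis lists form tight clusters below 0 (medians -0.61 and -0.48), while type 1, granule and homing lists spread over several log2 units.

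Some immunoglobulin transcripts rose. Igh-VS107, a heavy chain variable segment, read 5.54, 5.74 and 5.78 in control and 10.99, 10.97 and 10.88 in positive cells, and Ighm (IgM) 11.93, 11.89 and 12.15 against 13.23, 13.12 and 13.10. The Igh-VS107 values are those of the brighter of its 2 transcript clusters, and the other changed by 0.0. Cd79b and Cd79a, the signalling chains of the B cell receptor, rose by 1.10 ± 0.15 and 0.36 ± 0.12. Cd79a overlapped between the groups and was below the median level of all genes on all but 1 of the 6 arrays. Of 11 B cell markers 3 rose, Ighm and these chains, and the mean level of the list was 5.30 to 5.50 in control and 5.59 to 5.67 in positive cells. Ms4a1 (CD20), a defining B cell marker, was dim at 3.49 to 3.75 on all 6 arrays. The part of B cell RNA in these rises was not tested.

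Marker lists of other cells in the culture or spleen were followed in the same way. Of 18 dendritic cell markers 3 rose and 2 fell, with mean levels of 6.26 to 6.33 in control and 6.25 to 6.42 in positive cells. The rises were Ccr7, Cd86 and Cst3. The falls were Batf3 and Itgax, the latter by 1.76. Itgax encodes CD11c, the marker of the dendritic cells added to the wells, and is listed above among integrins. Of these 18 markers 11 were at or above the median level of all genes, while Xcr1 and Zbtb46 of the same list lay at 4.68 to 4.87 and 5.00 to 5.47. Of 15 macrophage markers 5 rose and 1 fell, with mean levels of 5.14 to 5.27 against 5.33 to 5.70. Lyz2 (lysozyme) rose by 1.82 ± 0.29, from 4.32, 4.94 and 4.37 to 5.56, 6.61 and 6.94, while Csf1r, the macrophage growth factor receptor, stayed at 4.59 to 5.19. Granulocyte markers rose in 2 of 11, Ltf and Ngp, with mean levels of 4.46 to 4.58 against 4.66 to 4.88. Kit rose by 1.39 ± 0.31 and Mcpt8 fell by 1.32 ± 0.26 among 11 mast cell and basophil markers, and 1 of 8 NK and γδ T cell markers rose, Klri2, while Eomes fell, with mean levels of 5.83 to 6.05 against 5.72 to 5.99. T cell markers had mean levels of 10.84 to 10.97 and 10.83 to 10.92. The part of RNA from other cells in the comparison was not tested.

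Changes in CD8 cells differed from those in CD4 cells for 2993 genes by the interaction test (13.5%), 1334 with a higher and 1659 with a lower CD8 change; cyclic loess between arrays turned this split to 1570 and 1336. Apol9b, Tph1, Hepacam2 and Ly6c2 had nearly equal changes in both, with interactions of 0.14, 0.05, 0.16 and -0.03. The interaction of Foxp3 was also 0.14, but its gap was set by the sort in both cell types and is not a result. Itgae rose more in CD8 cells, by 6.93 against 4.87 (interaction adjusted p = 1.12e-05), and so did Car2, by 4.97 against 1.18, and Psg17, by 4.46 against 1.58. Klra5 rose by 3.94 against 0.87, and Ly6g5b, a Ly6 family surface protein, by 3.00 while it changed by -0.11 in CD4 cells. Rises of Ccr8, P2rx7, Iigp1, Lif and Rgs1 were found in CD8 cells, with CD4 changes of -0.28, -0.23, 0.17, -0.51 and -0.29, and each of these 5 interactions passed. A smaller CD4 change need not mean a lower CD4 level. Ccr8 averaged 9.82 in control and 9.54 in Foxp3-positive CD4 cells, against 7.45 in Foxp3-positive CD8 cells. The same means of Iigp1 were 9.75, 9.91 and 9.39. Galnt3 fell by 3.59 in CD8 and 0.96 in CD4 cells, and Gzmk fell by 2.62 in CD8 cells with a CD4 change of -0.25 (interaction adjusted p = 0.000156). Other falls were smaller in CD8 cells: Havcr2 fell by 3.04 against 5.45, Adam8 by 3.41 against 5.10, and Gzmb by 1.44 against 4.54. Compared directly, Foxp3-positive CD8 and CD4 cells differed in 1044 genes (4.71%), among them Itgae, which was higher in the CD8 cells by 1.03 (adjusted p = 0.000334). Culture ran for 4 days in CD8 and 5 days in CD4 cells, so cell type and time cannot be told apart in these differences.

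**Figure D5:**
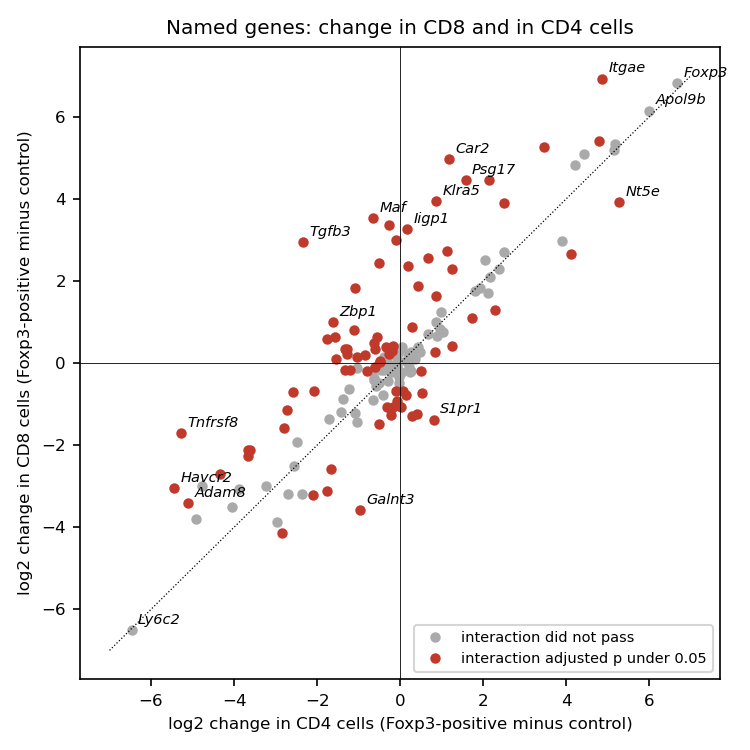
Log2 change (Foxp3-positive minus control, 3 arrays a group) of the 158 named genes in CD4 cells (horizontal axis) and CD8 cells (vertical axis); red genes passed the interaction test and grey genes did not, and the dotted line marks equal changes. Apol9b and Ly6c2 lie on the line, as does Foxp3, whose gap was set by the sort in both cell types. Maf and Tgfb3 rose in CD8 cells and fell in CD4 cells.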

How the data were processed

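Total RNA (250 ng a sample) of sorted T cells was measured on Affymetrix arrays. The deposited values are log2 expression levels per transcript cluster; per the submitters' processing notes the authors ran RMA in Expression Console of Affymetrix. For versions and genome build, the sources used here give nothing. Of 34365 clusters 23521 had 1 gene symbol in the platform annotation; the brightest cluster stood for each of 1082 genes with several, which left 22180 genes without a filter. List entries without such a cluster were not used here. All 12 arrays entered a linear model with 4 group means (R 4.3.3, limma 3.58.1, lmFit then eBayes, 8 residual degrees of freedom), two-sided, with Benjamini-Hochberg adjustment. The model was tested on simulated data. The number of arrays, 3 a group, limits the precision.

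Named genes are the label genes, the 12 largest rises and falls with adjusted p under 0.05, no overlap between groups and a mean of at least the median in the higher group, and from each of 52 lists the largest rise, largest fall and brightest gene that did not pass. Other genes were named after their values were seen. Members and lists were chosen with earlier results of these data known. Promoter windows cover 16990 genes outside chromosome 18. The labels do not tie replicates to separate animals or cultures, so p-values measure the spread between these samples. Alternatives changed the arrays fitted, the moderation, the filter, the scaling, array weights, the replicate letter as a block, and left out each array.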

Additional observations from a re-analysis of the deposited data

Results flagged for a closer look

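Among the genes named by rule 21 differed between CD8 and CD4 cells in direction or in the size of a leading change, by the interaction test of the model. Culture time, 4 days against 5, cannot be told apart from cell type in all of them.

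Larger rises in CD8 than in CD4 cells were found for Itgae (difference 2.05, adjusted p = 1.12e-05), Ldlrad4 (0.62, adjusted p = 0.0364), Igh-VS107 (1.79, adjusted p = 7.04e-05), Car2 (3.78, adjusted p = 4.88e-05), Psg17 (2.88, adjusted p = 0.000227) and Cpd (2.29, adjusted p = 0.000414). Deeper falls in CD8 cells were found for Sema4a (-1.29, adjusted p = 0.000472), Galnt3 (-2.63, adjusted p = 1.98e-06), Anxa2 (-1.11, adjusted p = 0.0392) and Plxnc1 (-1.35, adjusted p = 0.00223). Adam8 fell less in CD8 cells (1.69, adjusted p = 0.000334). Cd8b1 had a difference of 1.66 (adjusted p = 0.000127), from a CD8 change of 0.11 and a CD4 change of -1.55. For Igh-VS107 the value is that of the brighter of its 2 clusters, and the other changed by 0.0 in CD8 cells.

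Changes of opposite sign, each past the test in both cell types, came from Tgfb3 (2.94 in CD8 and -2.33 in CD4 cells, difference 5.26), Maf (3.53 and -0.65, difference 4.19), S100a1 (1.83 and -1.08, difference 2.92), Zbp1 (0.99 and -1.61, difference 2.61), Il1r1 (0.80 and -1.11, difference 1.91), Slfn2 (0.63 and -0.55, difference 1.18) and Tapbp (0.40 and -0.33, difference 0.73). S1pr1 (-1.38 and 0.81, difference -2.19) and Ndufa4 (-0.74 and 0.53, difference -1.27) fell in CD8 and rose in CD4 cells.

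Clusters outside the gene table were fitted and adjusted apart: 198 of 1814 with several gene symbols (10.9%) and 404 of 9030 with no symbol (4.47%) passed in CD8 cells. Both shares lie under the 20% of the genes tested.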

How the results depend on the processing

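The count of 4430 changed genes was 3472 to 4547 without 1 CD8 array and 3623 to 5129 under the other settings, and the 2993 genes with a CD8 and CD4 difference became 2253 to 3158 without any 1 of the 12 arrays and 2906 to 3795 under the other settings. No count over all genes moved by over 1.5 times, though several counts within lists did, as given with them, and no named gene changed sign when it passed. Of the 103 named genes that passed 95 did so in all 16 alternatives, and 23 of the 55 that did not pass did in at least 1. Calls under 2-fold were less firm: 67.1% of all calls, but 99.4% of calls of at least 2-fold, held without any 1 CD8 array. The replicate block, with the letters A, B and C as a term, gave 4359 genes, 4167 of them shared with the 4430, and 2921 for the difference; among named genes it gave Itga4, Tnfrsf18 and Prdm1 a call (adjusted p = 0.0222, 0.0405 and 0.0169) and took it from Il2rb and Slfn1 (0.067 and 0.0608). Within the 6 CD8 arrays alone, an alternative chosen after the sex-linked levels were seen, the block gave 3623 genes. These held 77.5% of the 4430. The block over all 12 arrays also uses the letters of CD4 arrays, whose sex-linked RNA did not match by letter on B and C. Same-letter CD8 arrays deviated together at r = 0.05, 0.13 and 0.14 across genes, against -0.14 to 0.02 for other pairs. Every letter thus correlated best with itself, though 1 pair was under 0.1, and the sex-linked RNA of CD8 arrays also matched by letter. The labels do not tie the letters, so the block was kept as an alternative and a pairing of CD8 arrays stays possible. With 3 arrays a group precision is limited, and genes near background have compressed changes.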

Other observations

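Several gene families outside the groups above also held changed members, beside 20% of all genes. Shares that passed were 39.3% for Wnt, Notch and Hedgehog, 33.3% for apolipoprotein L and 37.5% for GIMAP genes. Of 28 genes of the Wnt, Notch and Hedgehog pathways 6 rose and 5 fell, with a median change of -0.03. Nrarp, a feedback inhibitor of Notch, rose from 5.70, 5.89 and 5.77 in control CD8 cells to 7.50, 7.79 and 7.53 in Foxp3-positive ones, while Axin2, a feedback inhibitor of Wnt, fell by 0.76 ± 0.11 and Wnt10b by 1.28 ± 0.19. Of 12 apolipoprotein L genes 4 rose and 0 fell, with a median of 0.55: Apol10b and Apol7c rose by 0.90 and 0.81 beside Apol9b and Apol9a. Genes of this family are near copies, so single members are uncertain. Of 8 GIMAP GTPases, which support lymphocyte survival, 3 rose and 0 fell, led by Gimap9 at 0.88 ± 0.08.

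Survival genes of the BCL2 family rose in 3 of 18 and fell in 2 (median change 0.01). This 27.8% is not far above the 20% of all genes, and 14 of the 18 reached the median level. The shares that passed in the next 3 lists were 58.3% (IL-1 and IL-18 receptors), 34.6% (endoplasmic reticulum) and 71.4% (Schlafen). Pmaip1, which promotes death, and Mcl1, which opposes it, rose by 0.67 and 0.45, and Bid, which promotes death, fell by 0.69 ± 0.10. Genes of the IL-1 and IL-18 receptor family fell in 5 of 12 and rose in 2 (median change -0.20); Il1r1 rose by 0.80 and did not pass without control array A (adjusted p = 0.0572). Of 26 endoplasmic reticulum folding genes 6 fell and 3 rose, with 1 to 9 falls and 1 to 3 rises without 1 CD8 array. Of 7 Schlafen genes, which restrain T cell growth, 4 fell and 1 rose, but 1 to 3 fell without 1 CD8 array. Cd7, of the CD28 and SLAM list, rose from 7.32, 6.88 and 8.08 to 10.02, 10.03 and 10.44, and Vipr2, a receptor of vasoactive intestinal peptide, from 5.24, 5.65 and 6.14 to 7.25, 7.23 and 7.90.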
